A study of Mus musculus with 2 samples.

Results

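The genes described here are 50 named genes of the unfolded protein response and the integrated stress response, listed by name and not by a threshold on measured values. A member was read through the probe sets (groups of short probes) that the array annotation assigns to that gene and no other, and 49 of the 50 had at least 1 such probe set, among 18193 genes that had one in all. The exception was Sec61g, the gamma subunit of the protein channel of the endoplasmic reticulum (ER), whose probe set the annotation assigns to 3 genes and which was not analysed here. Ero1l and Ero1lb are listed in the annotation under their current symbols Ero1a and Ero1b. The study compared bone-marrow-derived macrophages from C57BL6 mice that were treated with lipopolysaccharide (LPS), an outer-membrane component of Gram-negative bacteria that Toll-like receptor 4 senses, with untreated control cells of the same strain. Both cultures were grown in RPMI medium with 10% serum and macrophage colony-stimulating factor (M-CSF), which drives marrow precursors to become macrophages. Total RNA of each was hybridized to an Affymetrix GeneChip mouse microarray. The labels give 1 LPS array and 1 control array, and neither the LPS dose, the length of treatment nor the number of mice. No difference below therefore has a replicate check or a p-value, and differences are described by size.

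Proteins that are secreted or sit in membranes are folded in the ER. When unfolded proteins accumulate there, the sensors IRE1 (encoded by Ern1), PERK (Eif2ak3) and ATF6 start the unfolded protein response. IRE1 splices the mRNA of Xbp1 so that it encodes an active transcription factor, cleaved ATF6 moves to the nucleus, and PERK phosphorylates the initiation factor eIF2, which slows most translation but favours that of ATF4. Other kinases phosphorylate eIF2 after viral RNA, amino acid shortage or haem deficiency, and this shared branch is the integrated stress response. The targets of these factors are chaperones, oxidoreductases, the machinery that removes misfolded proteins (ER-associated degradation) and genes of amino acid supply. In macrophages, Toll-like receptor signalling is known to engage IRE1 and to dampen the PERK branch's later outputs. An array of this kind reads mRNA amount and shows neither Xbp1 splicing, ATF6 cleavage nor phosphorylation.

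All 49 members were measured, meaning that the signal of the probe set used reached the floor on at least 1 array, and 48 reached it on both. The floor is each array's own median signal, 26.7 on the LPS array and 35.1 on the control array. Where a gene had several probe sets, the text reports the one brightest on average over both arrays on the log2 scale. Of all genes, 11722 were measured in this sense. The macrophage label fits the defining markers, since 8 of 8 (Adgre1, Csf1r, Cd68, Itgam, Lyz2, Mertk, Fcgr1 and Cd14) were above the floor on both arrays, with summed signals of 50779 on the LPS array and 43552 on the control array. Markers of B, T and NK cells, dendritic cells, erythroid cells, mast cells and stroma summed to between 23.0 and 144 on the LPS array and between 32.6 and 168 on the control array, and neutrophil markers to 729 on the LPS array and 470 on the control array. Plasma cells are rich in ER chaperones, and 4 of their 6 markers (Mzb1, Sdc1, Prdm1 and Irf4) were above both floors. The summed signal of the 6 was 890 on the LPS array and 734 on the control array. Jchain (7.06 on LPS and 11.2 on control) and Tnfrsf17 (2.14 on LPS and 12.3 on control) were under both floors. The part of neutrophil and plasma cell markers in the results below was not tested. The 3′ over 5′ signal ratio, a sign of RNA integrity, was 1.13 on the LPS array and 1.15 on the control array for Actb.

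Most of the response genes stood close to equal on the LPS and control arrays, and of the 7 that were at least 2-fold apart, 4 encode stress sensors or eIF2 phosphatase subunits. As deposited, 3 members passed 2-fold on the higher side in LPS cells (Ppp1r15b, Ppp1r15a and Manf), 4 were at least 2-fold lower (Eif2ak3, Ern1, Ero1lb and Dnajb9) and 42 lay within 2-fold. The shares are 6.12% of members higher, where 8.22% of all measured genes were, and 8.16% of members lower, where 26.2% of all measured genes were. The median log2 ratio (LPS over control) was -0.04 for the members and -0.42 for all measured genes, most of which had a negative ratio. After all ratios were centred on that median, 9 members were at least 2-fold higher (18.4%, with 13.1% of all genes) and 3 lower (6.12%, with 15.3% of all genes). The 6 members that centring adds to the higher side are Xbp1, Atf3, Chac1, Ero1l, Syvn1 and Selenos, and Dnajb9 leaves the lower side. After loess, which removes the shift as it varies with brightness, Chac1 and Ero1l passed 2-fold as well. Xbp1 (0.60), Atf3 (0.88), Syvn1 (0.95) and Selenos (0.77) did not. In RNA from bulk cultures, fewer cells that carry a transcript and less of it per cell cannot be told apart.

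The downward shift of the median over all genes varied with brightness, and the members were mostly bright. Their median mean log2 signal was 9.83, where that of all measured genes was 7.67. Among genes with a mean log2 signal of 9 to 11, the median ratio was -0.03 for the 18 members and -0.23 for all 2439 genes. At 11 to 14 it was 0.04 for the 12 members and -0.08 for all 786 genes, and at 7 to 9 it was -0.38 for 15 members and -0.61 for 3898 genes. Among dimmer genes, it was -0.04 for 3 members and -0.61 for 3417 genes at 5 to 7, and under 5 it was 0.21 for 1 member (Derl3) and -0.33 for 1182 genes. Quantile normalization, which equalises the distributions of both arrays, put the member median at -0.06 and that of all genes at -0.09. What part of the members' smaller shift goes with their brightness was not tested further.

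**Figure D1:**
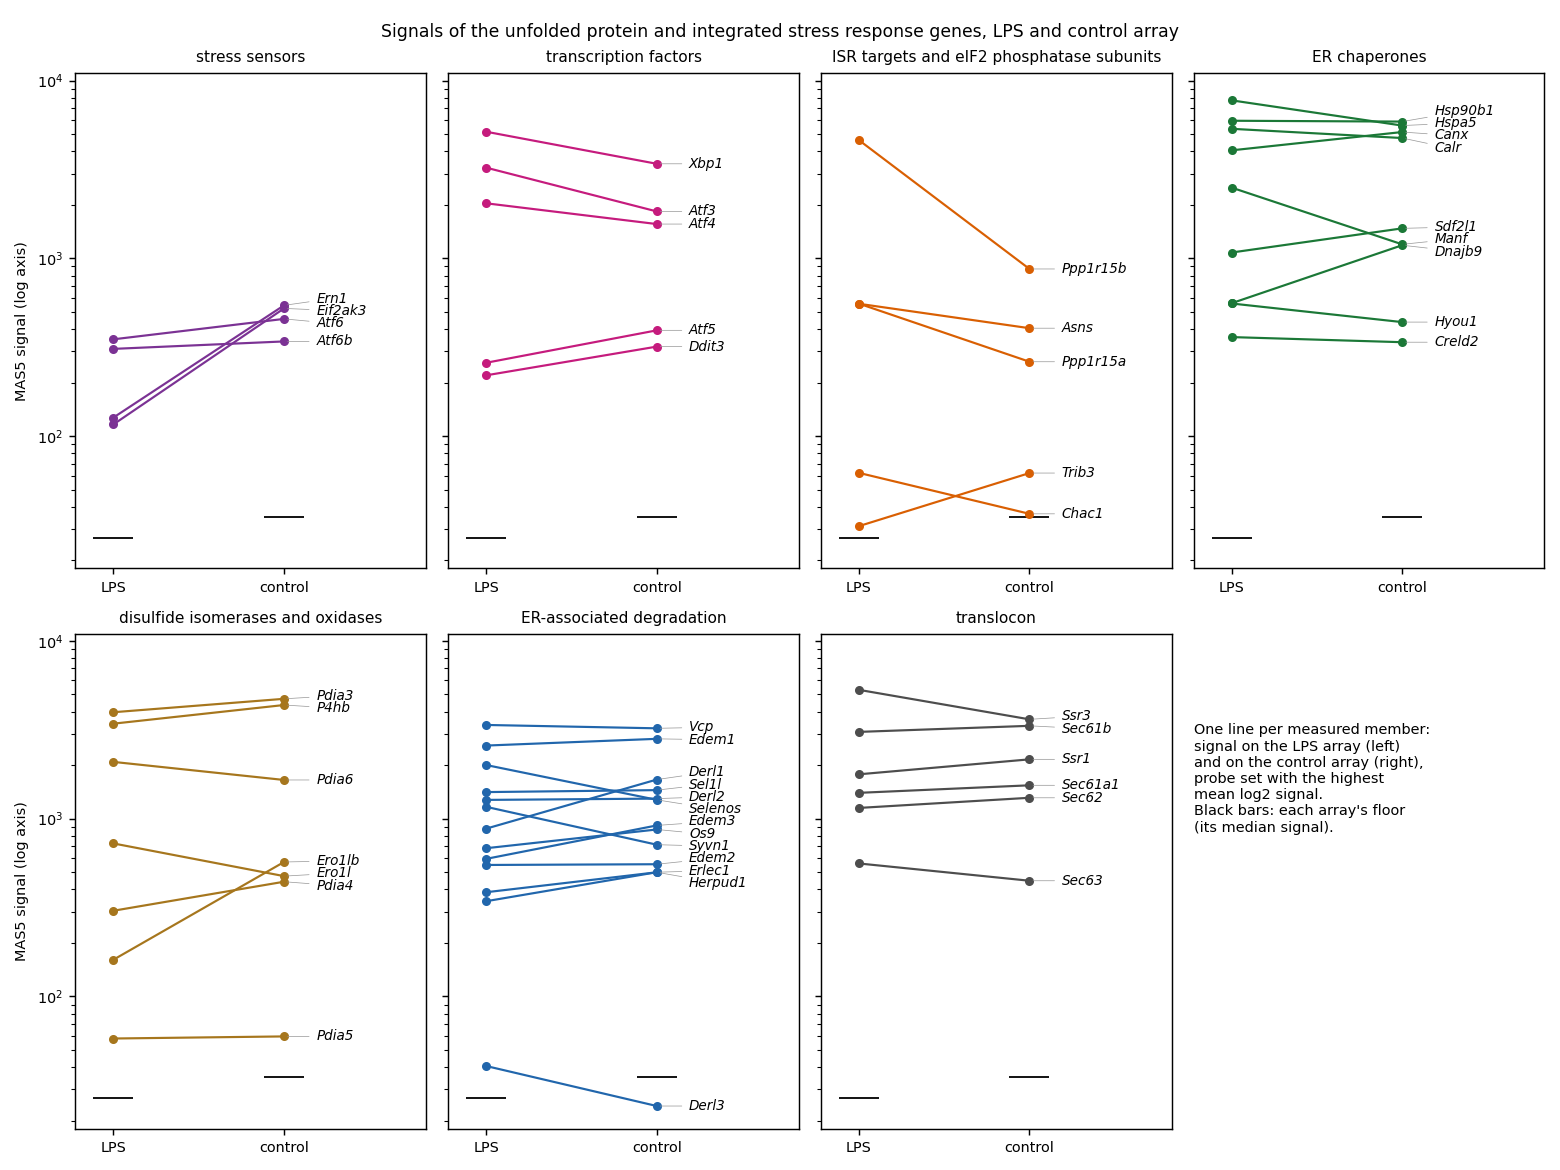
MAS5 signal (log axis) of every measured member on the LPS array (left of each panel) and the control array (right), 1 panel for each role, with black bars at each array's floor. The lines of Ern1 and Eif2ak3 are lower at the LPS end, at 127 and 116, that of Ppp1r15b is higher there, at 4627, and most others are nearly level.

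The promoters of these genes are known for short sequences that the response's transcription factors bind, and these are shown so that the members can be read by sequence as well as by signal. RefSeq promoter windows (build GRCm38.p6, from 250 bases before to 50 after each gene's start) were found for 43 of the 50 members, in 45 windows. The ER stress response element (ERSE), spelled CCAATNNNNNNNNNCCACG and bound by ATF6 with the factor NF-Y, was searched on both strands. It was present in 20.0% of member windows (9 of 45) and in 0.119% of all 32851 windows (39). Since the members' promoters are known for such elements, a higher member share, here and for the elements below, describes the list chosen. The related ERSE-II, spelled ATTGGNCCACG, was found in 1 member window, that of Herpud1, and in 12 of all windows. No match of one motif overlapped a match of another in the member windows. The stretches below read from 5′ to 3′ on the gene's own strand, with the element in capitals.

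Hspa5 (chr2:34772000-34772068, plus strand): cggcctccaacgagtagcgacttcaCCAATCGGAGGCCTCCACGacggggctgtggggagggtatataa
Hsp90b1 (chr10:86705613-86705681, minus strand): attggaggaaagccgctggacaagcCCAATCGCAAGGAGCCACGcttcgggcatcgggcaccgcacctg
Hsp90b1 (chr10:86705508-86705576, minus strand): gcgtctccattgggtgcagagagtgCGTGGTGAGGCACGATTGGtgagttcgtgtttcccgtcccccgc
Calr (chr8:84847050-84847118, minus strand): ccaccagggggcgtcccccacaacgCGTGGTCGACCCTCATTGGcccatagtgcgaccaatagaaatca
Canx (chr11:50325775-50325843, minus strand): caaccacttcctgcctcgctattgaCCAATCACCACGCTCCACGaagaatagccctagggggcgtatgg
Creld2 (chr15:88819495-88819563, plus strand): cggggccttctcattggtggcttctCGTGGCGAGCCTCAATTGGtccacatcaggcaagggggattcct
Pdia6 (chr12:17266466-17266534, plus strand): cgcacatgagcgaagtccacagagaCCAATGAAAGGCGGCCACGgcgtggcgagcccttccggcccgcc
Ero1lb (chr13:12565657-12565725, plus strand): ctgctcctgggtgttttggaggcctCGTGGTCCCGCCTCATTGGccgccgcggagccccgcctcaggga
Syvn1 (chr19:6046507-6046575, plus strand): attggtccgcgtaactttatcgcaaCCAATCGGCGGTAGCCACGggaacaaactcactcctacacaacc
Derl3 (chr10:75893217-75893285, plus strand): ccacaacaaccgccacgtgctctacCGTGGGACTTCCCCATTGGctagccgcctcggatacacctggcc
Herpud1 (chr8:94386352-94386412, plus strand): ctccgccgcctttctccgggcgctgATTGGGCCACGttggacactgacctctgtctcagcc

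The element that ATF4 binds together with C/EBP proteins (CARE), spelled TGATGNAA here and searched on both strands, was in 11.1% of member windows (5) and in 3.97% of all windows (1304). The 5 genes are Atf3, Chac1, Asns, Herpud1 and Trib3. That of Trib3 lies past the gene's start and is not printed. The UPRE, spelled TGACGTGG and linked to XBP1 and ATF6, was in 1 member window (Vcp) and in 0.676% of all windows. The 4 CARE stretches that lie before the start follow, with the element in capitals.

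Atf3 (chr1:191183411-191183468, minus strand): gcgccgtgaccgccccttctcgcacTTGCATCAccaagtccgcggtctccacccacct
Chac1 (chr2:119351024-119351081, plus strand): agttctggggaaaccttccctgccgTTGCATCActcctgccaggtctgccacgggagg
Asns (chr6:7693210-7693257, minus strand): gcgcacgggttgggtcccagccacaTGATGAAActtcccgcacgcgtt
Herpud1 (chr8:94386292-94386349, plus strand): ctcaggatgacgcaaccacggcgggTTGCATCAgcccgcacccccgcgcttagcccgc

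The members with these elements did not share a direction on the arrays. The 9 with an ERSE had log2 ratios from -1.83 (Ero1lb) to 0.71 (Syvn1), with a median of 0.17, while the 33 measured members with a window but no ERSE ranged from -2.17 to 1.09 with a median of -0.13. Those medians lie closer together than the ratios within either set. The 5 with a CARE ranged from -0.99 (Trib3) to 0.82 (Atf3), with a median of 0.46. A match describes the letters of a window, and no match says only that these letters are not in it.

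Among the stress sensors, mRNA of the IRE1 and PERK genes was several-fold lower on the LPS array by the probe sets used. The ATF6 paralogue gene Atf6b was near level, and the probe sets of Atf6 differed in direction. Ern1, which encodes the kinase and ribonuclease IRE1 alpha, had a signal of 127 on the LPS array and 544 on the control array, 4.28-fold lower. Its other probe sets at or above a floor were lower by less. The brighter was at a log2 ratio of -0.56 (48.7 on LPS and 71.9 on control), close to the median of all measured genes (-0.42). The dimmer was at -1.06 (23.4 on LPS, under the floor, and 55.4 on control). The several-fold difference of Ern1 thus rests on the probe set used. Eif2ak3, the PERK gene, had 116 on the LPS array and 523 on the control array, 4.49-fold lower, and its 2 other probe sets were under both floors. These were the lowest ratios of the members, at percentiles 6.30 and 5.82 of all measured genes, and both stayed past 2-fold lower in all 12 settings, the deposited values included. The range was -2.10 to -1.06 for Ern1 and -2.17 to -1.51 for Eif2ak3. The upper end for Ern1 is the median over its probe sets, which is its dimmer probe set with the LPS signal under the floor. Every other setting reads 1 probe set per gene, so the count of settings does not weigh the other probe sets of Ern1.

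Atf6, whose product is a membrane-bound transcription factor precursor, had 350 on the LPS array and 456 on the control array by the probe set used, a log2 ratio of -0.38. Its 3 probe sets did not share a direction. One was 227 on the LPS array and 565 on the control array (-1.31), and another was 154 on LPS and 112 on control (0.46). Atf6b, its paralogue, had 309 on the LPS array and 341 on the control array, -0.14. The sign of both turns under some settings, from -0.38 to 0.15 for Atf6 and from -0.14 to 0.45 for Atf6b, so neither has a settled direction.

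The transcription factor genes fell into those somewhat higher and those somewhat lower, all within 2-fold as deposited. Xbp1, which encodes the factor that IRE1 activates by splicing, had 5157 on the LPS array and 3403 on the control array, a log2 ratio of 0.60. All 4 of its probe sets were higher, within 0.50 to 0.68, and their signals were not resolved into spliced and unspliced mRNA. Atf4, the central factor of the integrated stress response, had 2040 on LPS and 1559 on control (0.39), with its other probe set above the floors at 0.90. ATF4 protein is set largely by translation, so these values cover its mRNA only. Atf3, a stress- and Toll-like-receptor-responsive repressor, had 3238 on LPS and 1836 on control (0.82) and passed 2-fold under both median centring and poly-A scaling. All 3 stayed positive in all 12 settings, though several settings can only raise a ratio or leave that of a bright gene unchanged.

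Ddit3, which encodes the pro-apoptotic factor CHOP, had 220 on the LPS array and 319 on the control array, -0.54, and its second probe set was at -0.74 (50.7 on LPS and 84.7 on control). Atf5, another factor favoured when eIF2 is phosphorylated, had 258 on LPS and 393 on control, -0.61. Both were lower by less than 2-fold, and once the shift of all genes is removed they stand near level: -0.11 and -0.18 after median centring, and 0.11 and -0.01 after loess. In no setting did either pass 2-fold.

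**Figure D2:**
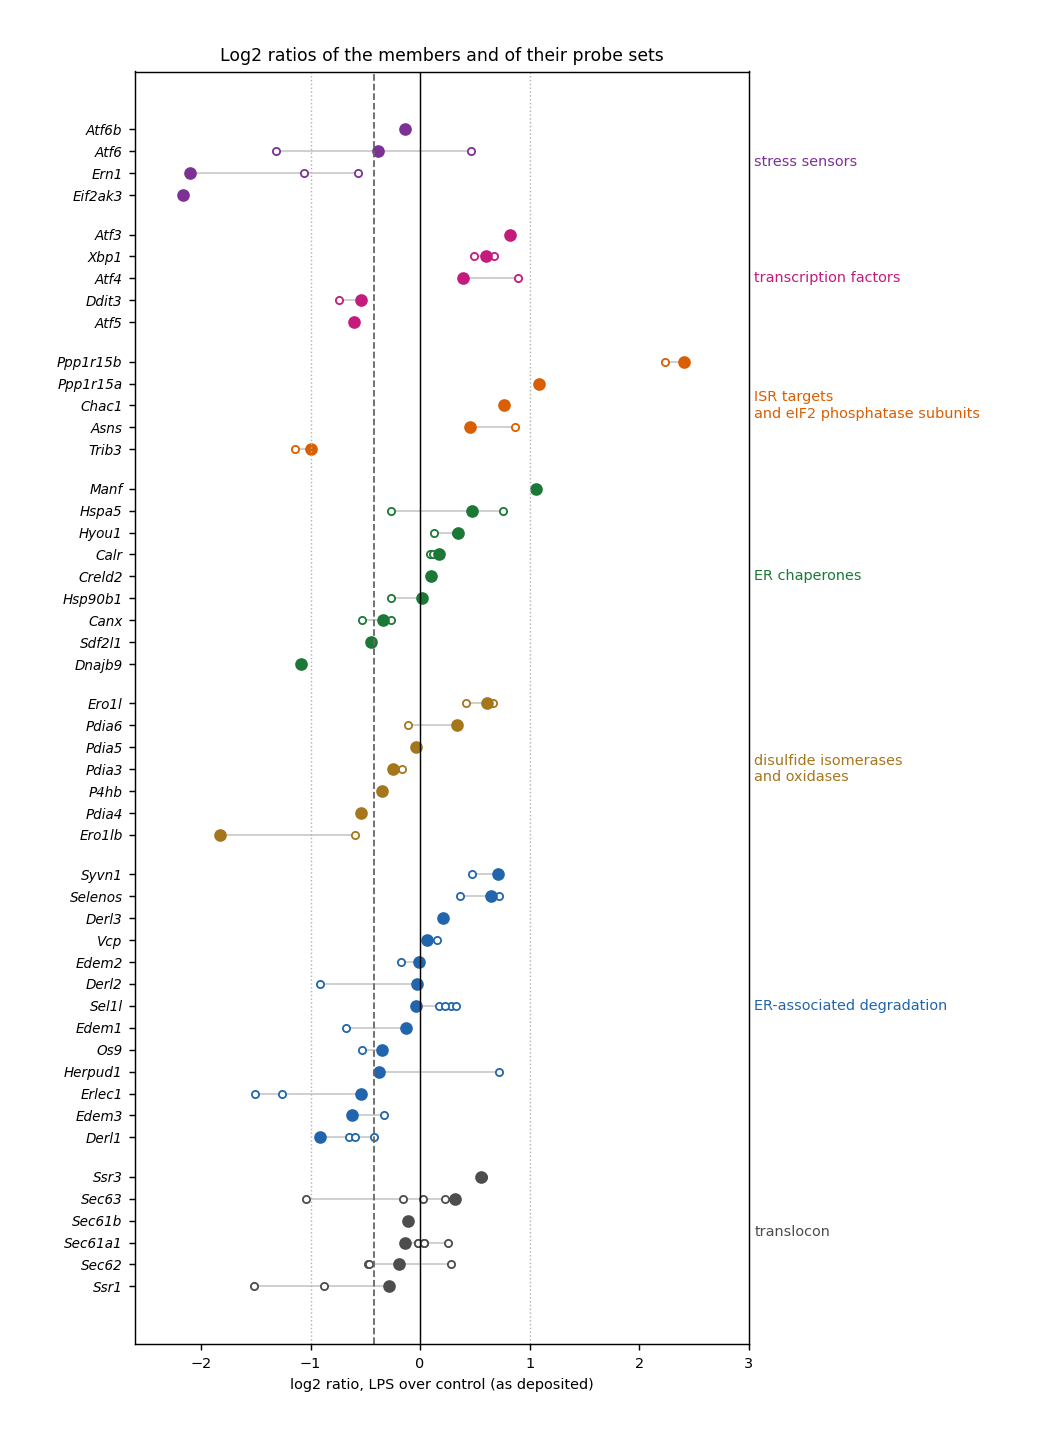
Log2 ratio (LPS over control, as deposited) of each member, with 1 row per gene grouped by role: filled points are the probe set used, open points the other measured probe sets, dotted lines 2-fold, the dashed line the median of all measured genes (-0.42). Ppp1r15b (2.41) stands alone on the right, Ern1, Eif2ak3 and Ero1lb on the left, and the probe sets of Atf6, Herpud1 and Sec63 fall on both sides of 0. The open point of Edem2 (-0.17) has its control signal under the floor, and its sign comes from the unequal floors.

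Both genes for the regulatory subunits that direct protein phosphatase 1 to eIF2, and so reverse the integrated stress response, were higher on the LPS array. Ppp1r15b, which encodes the constitutive subunit CReP, had 4627 on the LPS array and 871 on the control array, 5.31-fold higher, the largest ratio among the members (percentile 97.3 of all measured genes). Its second probe set, at 169 on LPS and 35.9 on control, had a log2 ratio of 2.23. Ppp1r15a, which encodes the stress-induced subunit GADD34, had 556 on LPS and 262 on control, 2.12-fold higher, with a single probe set. Both passed 2-fold in all 12 settings, between 2.23 and 2.83 for Ppp1r15b and between 1.04 and 1.63 for Ppp1r15a on the log2 scale.

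The ATF4 target genes differed in direction. Asns, the asparagine synthetase gene, had 555 on the LPS array and 405 on the control array (0.46), with its second probe set at 0.87, and was higher in all 12 settings without reaching 2-fold. Chac1, which encodes an enzyme that degrades glutathione, had 62.1 on LPS and 36.5 on control (0.77), close to the floor. Its ratio was positive in all settings but the floor at the 65th percentile, where the unequal floors (60.0 on LPS and 90.9 on control) replace its control signal alone and turn the sign. Trib3, which encodes a pseudokinase that restrains ATF4 and CHOP, had 31.1 on LPS and 61.9 on control (-0.99), also close to the floor, and its second probe set was lower too, at 22.7 on LPS, under the floor, and 59.0 on control. Asns, Chac1 and Trib3 carry a CARE match, as the stretches and counts above give.

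Among the ER chaperones, Manf was higher, Dnajb9 lower and the major chaperones near level. Manf, which encodes a secreted ER stress protein that binds the chaperone BiP, had 2500 on the LPS array and 1199 on the control array, 2.09-fold higher, and was past 2-fold in 11 of 12 settings, the exception being quantile normalization. Dnajb9, which encodes ERdj4, a BiP co-chaperone that acts on IRE1, had 559 on LPS and 1185 on control, 2.12-fold lower, and was past 2-fold in 8 of 12 settings. Each was read by a single probe set. Hspa5, the BiP gene, had 7743 on LPS and 5585 on control (0.47). A second probe set was at 0.76 and a dimmer one at -0.26 (488 on LPS and 585 on control).

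The other chaperones differed little. Hsp90b1, the GRP94 gene, had 5944 on the LPS array and 5880 on the control array (0.02), with its second probe set at -0.26, and its sign turns between settings. Calr (calreticulin) had 5355 on LPS and 4751 on control (0.17), and its membrane-bound relative Canx (calnexin) had 4051 on LPS and 5136 on control (-0.34). The signs of both turn between settings. Hyou1, a large chaperone that works with BiP, had 557 on LPS and 438 on control (0.35). Creld2 had 361 on LPS and 337 on control (0.10), and Sdf2l1, another BiP partner, had 1078 on LPS and 1474 on control (-0.45). Hspa5, Hyou1 and Creld2 stayed positive, and Sdf2l1 negative, in all settings that gave them a value, with no 2-fold difference. The group's median of 0.10 ranged from -0.09 to 0.52 over the settings. ERSE matches stand in the promoters of Hspa5, Hsp90b1, Calr, Canx and Creld2, whose ratios span -0.34 to 0.47.

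The paralogous oxidase genes Ero1l and Ero1lb differed in opposite directions. Their products pass oxidizing equivalents to protein disulfide isomerases. Ero1l had 725 on the LPS array and 475 on the control array (0.61), with all 3 probe sets higher, from 0.42 to 0.67. Ero1lb had 161 on LPS and 570 on control, 3.55-fold lower. Its other probe set above the floors was lower by less, at -0.60 (106 on LPS and 160 on control), close to the median of all measured genes (-0.42). The several-fold difference of Ero1lb thus rests on the probe set used. Ero1lb was past 2-fold lower and Ero1l positive in all 12 settings. The disulfide isomerases themselves stayed within 2-fold: Pdia6 was at 0.34 (2085 on LPS and 1650 on control), Pdia5 at -0.04, Pdia3 (ERp57) at -0.25, P4hb, the founding member, at -0.35 and Pdia4 at -0.54. The last 4 turn sign between settings, as does the group's median of -0.25, which ranged from -0.30 to 0.17.

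None of the 13 genes of ER-associated degradation was 2-fold apart as deposited, and 2 were after median centring. Syvn1, which encodes the ubiquitin ligase HRD1, had 1165 on the LPS array and 714 on the control array (0.71), with its second probe set at 0.48. Its membrane partner Sel1l had 1410 on LPS and 1447 on control (-0.04), while its 4 other probe sets were between 0.17 and 0.32. Selenos, a selenoprotein that anchors the ATPase p97 at the ER, had 2003 on LPS and 1276 on control (0.65), with 3 of 3 probe sets higher. Vcp, the p97 gene, was level at 3365 on LPS and 3222 on control (0.06).

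The derlins, which are channel-like components of the same pathway, did not move together. Derl1 had 878 on the LPS array and 1659 on the control array (-0.92), and all 4 of its probe sets were lower, from -0.92 to -0.42. Derl2 was level by the probe set used, at 1275 on LPS and 1296 on control (-0.02), but its other probe set was at -0.92. Derl3 had 40.6 on LPS and 24.2 on control, under the floor, so that it was at least 1.16-fold higher. Derl1 stayed negative in all 12 settings, and Derl2 turns sign. The median of all degradation genes was -0.04 and ranged from -0.13 to 0.39 over the settings.

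The genes that single out misfolded glycoproteins were level or slightly lower as deposited, and Edem1, Edem2 and Os9 change sign between settings. Edem3, a mannosidase-family gene, had 594 on the LPS array and 916 on the control array (-0.62), and its relatives Edem1 and Edem2 were at -0.13 and -0.01. The lectin genes Os9 and Erlec1 were at -0.35 and -0.54. The 2 dimmer probe sets of Erlec1 were lower by more, at -1.51 and -1.26, and Erlec1 passed 2-fold when the median over its probe sets was taken. Herpud1, whose product recruits the ligase complex, was read in opposite directions by its 2 probe sets, at 385 on LPS and 499 on control (-0.37) and at 447 on LPS and 271 on control (0.72). Its promoter holds both an ERSE-II and a CARE.

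The translocon genes, which make the channel by which new proteins enter the ER, spanned the narrowest range of ratios among the 7 role groups by the probe sets used, though not over all their probe sets. All 6 measured members lay within 2-fold, between -0.28 and 0.55, and none passed after median centring. Ssr3, a subunit of the translocon-associated complex, had 5305 on the LPS array and 3619 on the control array (0.55), with its second probe set at 0.57, while its partner Ssr1 had 1776 on LPS and 2156 on control (-0.28). Of the other 3 probe sets of Ssr1, the brightest was at -0.29 and the dimmer ones were lower by more, at -0.87 (67.2 on LPS and 123 on control) and -1.51 (24.9 on LPS, under the floor, and 76.1 on control). Sec61a1, the channel subunit, had 1397 on LPS and 1540 on control (-0.14), and its 6 probe sets lay between -0.14 and 0.25. Sec61b was at -0.11 and Sec62 at -0.19. Ssr1, Sec61a1, Sec61b and Sec62 turn sign between settings, whereas Ssr3 and Sec63 stayed positive. Sec63 was at 0.32 by the probe set used, with the other 4 from -1.04 to 0.23.

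Probe sets of a gene give a technical gauge, which is no replicate error. Of 32 members with at least 2 probe sets above both floors, 11 had all of them higher, 12 all lower and 9 in both directions. These directions are around 0 as deposited, where 3387 of all measured genes were above 0 and 8335 below by the probe set used. The log2 ratios of a member's probe sets had a median SD of 0.20, where that over 4494 genes of the whole array was 0.28. Differences under about that size, which include those of Hsp90b1, Creld2, Pdia5, Vcp, Edem2, Sel1l and Derl2, are within what probe sets of 1 gene differ by. Over the 12 settings, 22 of the 49 members changed sign and 27 did not, with Chac1 among the 22 through unequal floors alone. Median centring subtracts the all-gene median (-0.42), so any negative ratio above that median turns positive by this step alone. The count is therefore no measure of error.

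**Figure D3:**
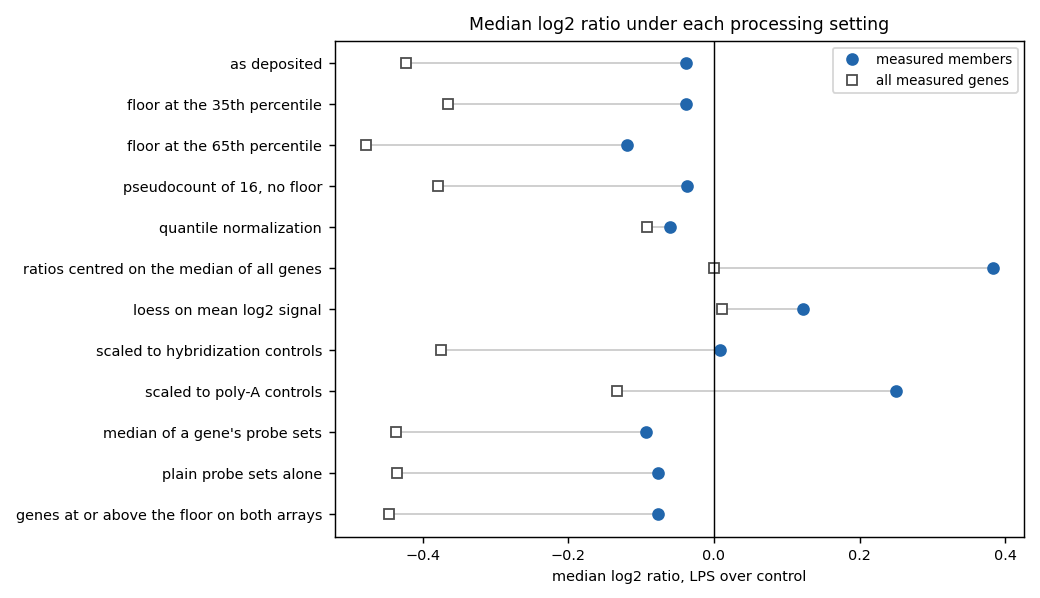
Median log2 ratio (LPS over control) of the measured members (filled points) and of all measured genes (open squares) under each setting, from the deposited values at the top. The member median stands at or above that of all genes in each, by 0.38 as deposited, 0.11 after loess and 0.03 after quantile normalization, and passes 0 in 4 settings.

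Further genes of the same pathways were listed by function, and their ratios are as deposited unless stated. Among all measured genes, 8.22% passed 2-fold on the higher side and 26.2% on the lower as deposited, and 13.1% higher and 15.3% lower after median centring, so that a few lower genes in a list are near the background. In the eIF2 list, 2 of 13 measured genes passed 2-fold on the higher side and 1 on the lower (median -0.42), as they did after centring. The list counts Eif2s1, matched by a synonym to the annotation symbol Eif2a, so its value may belong to another gene. Eif2ak2, which encodes the double-stranded-RNA-activated and interferon-induced kinase PKR, had 1492 on the LPS array and 367 on the control array, 4.07-fold higher. Eif2ak4, which encodes the amino acid sensor GCN2, had 18.5 on LPS, under the floor, and 211 on control, at least 7.89-fold lower. Eif2ak1, which encodes the haem-regulated kinase, was at -0.44, the adaptor gene Nck1 was 2.42-fold higher and Eif2b1 was at -0.76. With Eif2ak3, which was 4.49-fold lower, the eIF2 kinase genes stood on both sides.

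Of 23 measured genes linked to ATF4, 4 were higher and 7 lower by 2-fold (median -0.41), and 5 were higher and 4 lower after centring. The stress-induced chromatin factor gene Nupr1 had 2393 on the LPS array and 220 on the control array (10.9-fold higher), Cebpb was 4.50-fold higher, and the cystine transporter gene Slc7a11 was at least 3.82-fold higher. The amino acid transporter gene Slc38a2 had 300.4 on LPS and 1388 on control, 4.62-fold lower by the probe set used. Its 3 probe sets ranged from -2.21 to -0.25. Asns, Chac1 and Trib3 among the members also stood on both sides of 0. Several cytosolic tRNA synthetase genes are known ATF4 targets. Of 19 measured, 2 were higher, Wars (4.77-fold), which is also interferon-induced, and Rars (3.46-fold), and 1 was lower, Nars (2.06-fold), with a median of -0.03. After centring 5 were higher and 0 lower. Qars was at -0.97, with its 3 probe sets on both sides of 0.

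The ER machinery beyond the members was mostly within 2-fold. None of 11 oligosaccharyltransferase genes, which attach glycans to new proteins, passed it (median -0.26). Stt3b (-0.65), Krtcap2 (-0.47), Rpn1 (-0.37) and Ddost (-0.32) were the lowest and Dad1 was the highest (0.03). None of 17 further targeting and translocation genes did either (median -0.25), and 2 were higher after centring. Tram1 was at -0.80 and Sec61a2 at -0.75, while Tram2 was at 0.96 and the signal recognition particle receptor gene Srpr at 0.75. The probe sets of both Tram1 and Tram2 fell on both sides of 0.

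Of 20 further degradation genes, 3 were lower and 0 higher, but after centring 1 was lower and 2 were higher. The deglycosylating enzyme gene Ngly1 was 3.08-fold lower and the ubiquitin ligase gene Rnf5 2.36-fold lower. The ligase gene March6 was 2.06-fold lower, with its second probe set at 0.05, and Ube2g1 was at -0.96. The ligase gene Rnf139 went the other way, at 0.78. Of 27 further chaperones and oxidoreductases, 7 were lower and 1 higher, and 4 lower and 2 higher after centring. The largest were Cnpy4 (6.86-fold), Tmx4 (4.56-fold), Erp29 (2.96-fold) and Cnpy3 (2.77-fold), all lower. The higher gene was Dnajc1 (2.25-fold), whose 4 probe sets fell on both sides of 0, down to -0.28. Of 11 COPII coat genes, which carry cargo out of the ER, Sec23b (2.85-fold) and Sec24b (2.07-fold) were higher and 0 were lower, also after centring (median 0.06). Sec24d (-0.57) and Preb (-0.55) were the lowest.

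The protease genes for ATF6 cleavage were lower, where Atf6 itself had no settled direction. Mbtps2, the site-2 protease gene, had 360 on the LPS array and 999 on the control array (2.77-fold lower). Mbtps1, the site-1 protease gene, had 318 on LPS and 656 on control (2.06-fold lower by the probe set used). The 3 probe sets of Mbtps1 ranged from -1.69 to -0.45, and after centring it was within 2-fold, at -0.62. With Creb3l2 (2.14-fold), 3 of the 6 genes of that list were lower, and 1 of the 6 after centring (medians -0.97 and -0.54). Creb3l1 was at -0.89, and Creb3 went the other way at 0.41, with its 4 probe sets on both sides of 0. Of 5 ER-phagy genes, which deliver ER to lysosomes, 3 were lower (median -1.27), and 2 after centring (median -0.85). Ccpg1, an ER-phagy receptor gene that ER stress is known to induce, had 108 on LPS and 753 on control (6.94-fold lower). Retreg1 was 3.36-fold lower and Tex264 2.41-fold lower, and Rtn3 was at -0.99.

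In the list of ER stress signalling and cell death, 2 of 8 measured genes were higher and 2 lower (median 0.29), and 3 higher and 1 lower after centring. Traf2, an adaptor that IRE1 binds, had 861 on the LPS array and 171 on the control array, 5.04-fold higher, on arrays where Ern1 was 4.28-fold lower. Casp12 was at least 2.50-fold higher, at 87.8 on LPS and 9.15 on control, under the floor. The pro-apoptotic gene Bbc3 was 2.93-fold lower. Bcl2l11, another such gene, was 2.29-fold lower by the probe set used, but its 5 probe sets ranged from -1.20 to 0.60.

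The cytosolic heat shock genes, a separate response, had 4 of 14 higher and 0 lower, also after centring (median 0.38). Hspa1b led with 1586 on the LPS array and 84.8 on the control array (18.7-fold), followed by Hspa1a (6.13-fold), its near-identical copy, whose probe sets may read both, Dnaja1 (3.47-fold) and Stip1 (2.62-fold). Fkbp4 went the other way, at -0.79. None of the 7 mitochondrial chaperone and protease genes was 2-fold apart, also after centring (median -0.47). Clpx (-0.82), Clpp (-0.80), Hspe1 (-0.50) and Lonp1 (-0.47) were the lowest and Dnaja3 was at 0.05. The medians of the eIF2, ATF4-linked, synthetase, oligosaccharyltransferase, translocation, degradation and mitochondrial lists change sign between settings, whereas those of the ATF6 processing, ER-phagy, chaperone, COPII, cell death and heat shock lists do not.

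**Figure D4:**
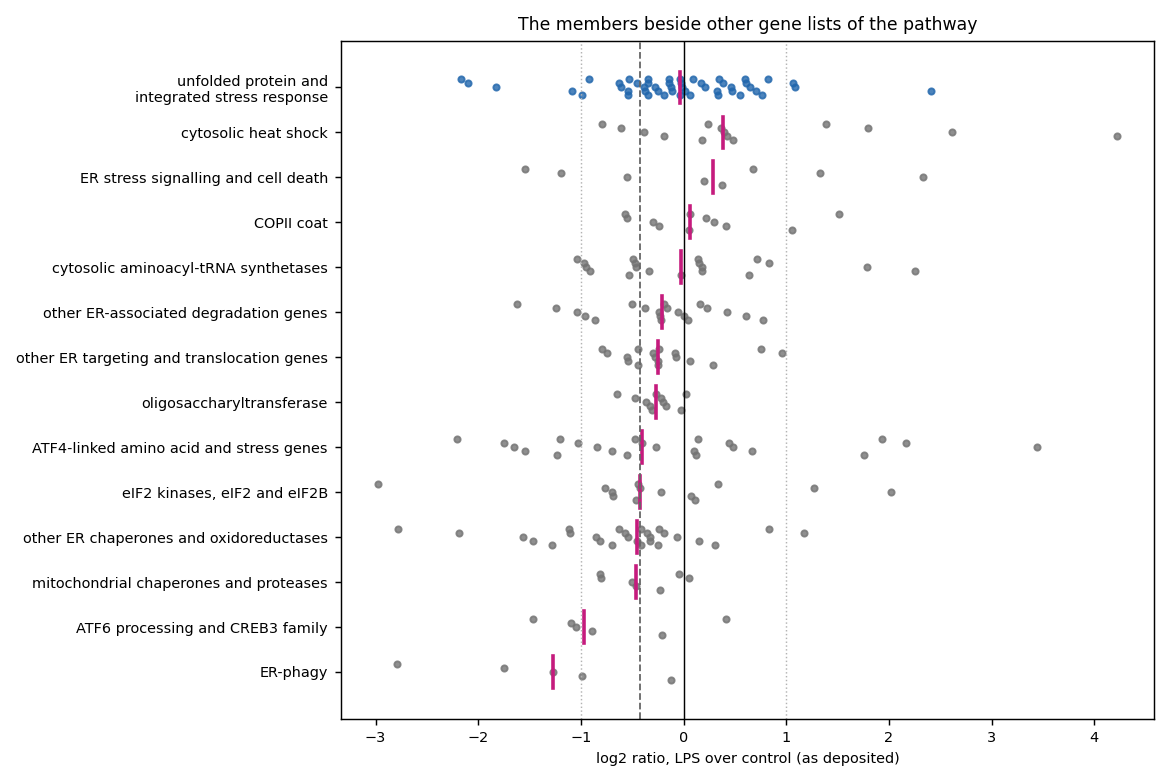
Log2 ratio (LPS over control, as deposited) of each measured gene in the response members (blue, top row) and in 13 other lists of the pathway (grey), ordered by median. Pink bars are medians, dotted lines 2-fold and the dashed line the median of all measured genes (-0.42): the ER-phagy list has its median at -1.27 and the cytosolic heat shock list at 0.38.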

How the data were processed

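The data are 1 table of 2 arrays with 45037 probe sets and 64 array controls. Each value is a linear intensity deposited by the authors, from MAS5 according to the submitters' processing notes. Which MAS5 version, target scaling or detection call was used is not given in the sources used here. Probe sets were named from the platform annotation (34945 with 1 gene). Signals under an array's floor, its 50th percentile over non-control probe sets, were set to it before the ratio, and such a fold is given as "at least". Because the floors differ, this turned the sign of 449 genes with 1 signal under its floor, to log2 ratios of at most 0.39 in size, so that none of these was counted at 2-fold and no member was among them. Ratios are log2 LPS minus log2 control, unscaled, and were counted at 2-fold. With 1 array a group no test was possible, and the number of arrays limits the precision. Fold changes set each probe set against itself; signals of different genes were used only to bin genes by brightness and to sum marker lists.

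Members and lists were chosen with earlier results of these data known. The text accounts for every member, and takes from each other list up to 4 genes with the largest ratios and the 1 most opposed to the list's median. Eif2ak1 was added after its value was seen. Alternatives were floors at the 35th or 65th percentile, adding a pseudocount of 16 without a floor, quantile normalization, median centring, loess (span 0.4), scaling to hybridization or poly-A controls, a median over each gene's probe sets, only probe sets of the plain kind, genes above both floors, and thresholds of 1.5-fold and 3-fold. Of these, 11 give each member a ratio, which with the deposited values makes 12 settings. A member that a filter removes has fewer. Median centring and scaling to either set of controls raise every ratio by a constant, so no positive ratio can turn negative under them. Changing the floor leaves the ratio of a gene well above it as it was. A positive sign kept in all settings is therefore a weak check. Promoter sequences are RefSeq's, and protein ends were not analysed here. Steps were tested on simulated data (Python 3.11.15, numpy 2.4.6, pandas 2.3.3, statsmodels 0.14.6).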

Additional observations from a re-analysis of the deposited data

How the results depend on the processing

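No paired analysis was possible because each group has 1 array. As deposited, 3 members were at least 2-fold higher and 4 lower. The higher count was 9 after median centring and 5 under both loess and poly-A scaling. At a 1.5-fold threshold 9 were higher and 8 lower, which is 18.4% and 16.3% of members. Of all measured genes, 13% were higher and 42% lower at that threshold. At 3-fold, 1 was higher (Ppp1r15b) and 3 lower, which is 2.04% and 6.12% of members. Of all measured genes, 5.22% were higher and 12.2% lower at 3-fold. The members' median of -0.04 turned positive with median centring (0.38), loess (0.12), hybridization-control scaling (0.00859) and poly-A scaling (0.25), each of which also raises the median of all genes. Of the genes past 2-fold, the share on the higher side was 42.9% for members and 23.9% for all genes as deposited, and 75.0% for members and 46.2% for all genes after median centring. It was 50% for members and 42.8% for all genes after quantile normalization. After loess it was 62.5% for members and 51.8% for all genes, and with poly-A scaling 62.5% and 37.7%. The member shares rest on few genes, with 3 higher and 4 lower as deposited, and 9 higher and 3 lower after median centring. There were 3 higher and 3 lower after quantile normalization, and 5 higher and 3 lower under both loess and poly-A scaling. Over all measured, 6.12% of members and 8.22% of genes were higher as deposited, and 6.12% and 11.7% after quantile normalization. Under loess, 10.2% of members and 13.8% of genes were higher, and with poly-A scaling 10.2% of members and 11% of genes. After median centring the order turned, with 18.4% of members and 13.1% of genes higher. The median ratio of the hybridization controls was -0.05 (18 probe sets) and that of the poly-A controls -0.29 (24 probe sets). Casp12, which is no member, came to -0.0499 with a 65th-percentile floor, where the higher control floor (90.9, against 60.0 for LPS) replaces its control signal of 9.15, so the sign there is set by the floors. Chac1, Trib3 and Derl3 lie near the floor, where signal over background limits the precision most.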
